A study of Caenorhabditis elegans with 10 samples.

Results

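The 8 genes described here, ctsa-1.2, hrg-11.2, bcf-1, C14C6.5, mbug-1, K12H4.7, dod-19 and dod-23, were dimmer in fasted than in fed adult Caenorhabditis elegans of both mutant strains measured, from 34.7-fold for ctsa-1.2 in mek-1 to 1.69-fold for dod-23 in mlk-1. They were chosen for that difference, and every probe set whose annotated symbol is one of them was taken, which gave 11 of the 22548 probe sets tested and 8 of the 17118 genes. Total RNA of whole animals was labelled with biotin by in vitro transcription from the 3′ end and read on 1-colour arrays. The animals were mutants of the kinase gene mek-1 or of mlk-1. The labels name no allele. Age-matched adults were moved on adult day 2 to plates that carried the bacterial food OP50-1 (fed) or none (fasted), and RNA was taken 2 days later, on adult day 4. The arrays comprised 3 fed and 3 fasted mek-1 arrays and 2 fed and 2 fasted mlk-1 arrays. All 4 groups carried a mutated kinase gene, and wild-type animals are not analysed here.

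In the worm, the kinase MLK-1 acts on the kinase MEK-1, which acts on KGB-1 in a stress-activated cascade of the JNK type. The intestine of C. elegans takes up food, stores fat, secretes digestive enzymes and is the main tissue to meet swallowed bacteria. Cathepsin A is a serine carboxypeptidase, which removes amino acids from the end of peptides. The S28 peptidases are serine peptidases that include prolyl carboxypeptidase.

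The mek-1 probe set read 66.5 to 139 on the mek-1 arrays and 1137 to 1387 on the mlk-1 arrays. Both mlk-1 probe sets read about as high on mlk-1 as on mek-1 arrays, from 132 to 232 against 84.6 to 197. The allele and the position of these probes are not given in the sources used here, so they do not check the mlk-1 label. Array medians lay between 70.5 and 74.9. On the first principal component, with 45.4% of the variance, fed and fasted arrays parted. On the second, with 19.7%, both mek-1 arrays numbered 3 stood apart.

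The values below are intensities as deposited, on a linear scale. Because the choice of the genes used fasted against fed, that difference is given as a description without a test, and differences between the strains are tested.

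Of the peptidases, ctsa-1.2, a cathepsin A-like serine carboxypeptidase, had the largest mean difference over both strains of the 8 genes. For the genes with 2 probe sets the values are those of the probe set with the higher mean, unless the other is named. In mek-1, ctsa-1.2 read 3163, 2870 and 2025 on the fed arrays and 80.2, 78.5 and 70.01 on the fasted arrays. In mlk-1 it read 3240 and 3968 fed against 141 and 157 fasted. All fed arrays lay above all fasted arrays, with no overlap in either strain. The fasted level was 2.88% of the fed level in mek-1 (34.7-fold lower) and 4.15% in mlk-1 (24.1-fold lower), from geometric means. On the log2(value + 16) scale the differences were -4.85 ± 0.16 (SE, n = 3 against 3) and -4.45 ± 0.20 (n = 2 against 2). The other probe set of ctsa-1.2 kept 3.57% and 4.32%.

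K12H4.7 encodes a serine peptidase of the S28 family. It read 2550, 2032 and 2533 in fed and 231, 173 and 217 in fasted mek-1 animals. In mlk-1 it read 2406 and 3500 fed, 142 and 145 fasted. Here the fasted mlk-1 arrays were the lowest of all 10. K12H4.7 kept 8.72% of its fed level in mek-1 and 4.94% in mlk-1.

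The gene hrg-11.2 carries the name of the heme responsive genes. Its values were 2717, 2426 and 2080 in fed mek-1, 101, 80.3 and 74.3 in fasted mek-1, 2638 and 2838 in fed mlk-1, and 180 and 170 in fasted mlk-1. The fed arrays of both strains lay in one range, whereas every fasted mek-1 array was below both fasted mlk-1 arrays. It kept 3.53% of the fed level in mek-1 (28.4-fold lower) and 6.38% in mlk-1 (15.7-fold lower).

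The gene bcf-1, named as a bacterial colonization factor, is known in the worm from the intestine and its bacteria. In mek-1 it read 2035, 2047 and 2131 fed and 101, 105 and 71.0 fasted. In mlk-1 it read 669 and 2668 fed and 54.9 and 141 fasted. Both values from the mlk-1 arrays numbered 1 were low, so bcf-1 had the widest spread between mlk-1 arrays of the 8 genes (0.99 above and below the mean of the fed arrays on the log2 scale). Within a strain fed and fasted arrays did not overlap, and bcf-1 kept 4.39% of its fed level in mek-1 and 6.57% in mlk-1.

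The gene mbug-1 encodes a protein with a CUB-like domain, a class of secreted protein known in the worm from responses to pathogens. It read 1380, 1440 and 403 in fed mek-1 animals and 74.3, 78.0 and 92.3 in fasted ones. Fed mlk-1 animals were at 3723 and 4813, above every fed mek-1 array, and fasted mlk-1 animals at 194 and 184, above every fasted mek-1 array. The low fed value was that of the mek-1 array numbered 3, one of the pair that stood apart. The gene kept 8.74% of its fed level in mek-1, with 5.39% to 22.9% over same-numbered pairs, and 4.46% in mlk-1.

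C14C6.5 read 1135, 1002 and 2344 in fed and 129, 113 and 121 in fasted mek-1 animals, and 1680 and 2406 in fed and 79.7 and 85.5 in fasted mlk-1 animals. The fed mek-1 array numbered 3, lowest for mbug-1, was highest here. C14C6.5 kept 8.72% in mek-1 and 4.11% in mlk-1, and 8.88% and 5.16% by its other probe set.

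The remaining genes, dod-19 and dod-23, are named for lying downstream of DAF-16, the FOXO transcription factor of the insulin pathway. In mek-1, dod-19 read 3175, 3716 and 2446 fed and 185, 179 and 106 fasted. In mlk-1 it read 2602 and 4661 fed but still 534 and 694 fasted. Fed arrays of the strains overlapped, and fasted ones did not. It kept 4.95% in mek-1 and 17.5% in mlk-1, and its other probe set kept 4.65% and 14.8%.

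The gene dod-23 had the smallest difference. It read 6536, 6810 and 6406 in fed and 1302, 1249 and 1285 in fasted mek-1 animals. In mlk-1 it read 4146 and 5369 fed and 2469 and 3172 fasted. The fed mek-1 arrays were above both fed mlk-1 arrays and the fasted mek-1 arrays below both fasted mlk-1 arrays. The fed part of this order was not past the threshold when tested (adjusted p = 0.226 in limma). The share of all probe sets with such an order was not counted. It kept 19.4% of the fed level in mek-1 (5.15-fold lower) and 59.3% in mlk-1 (1.69-fold lower).

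**Figure D1:**
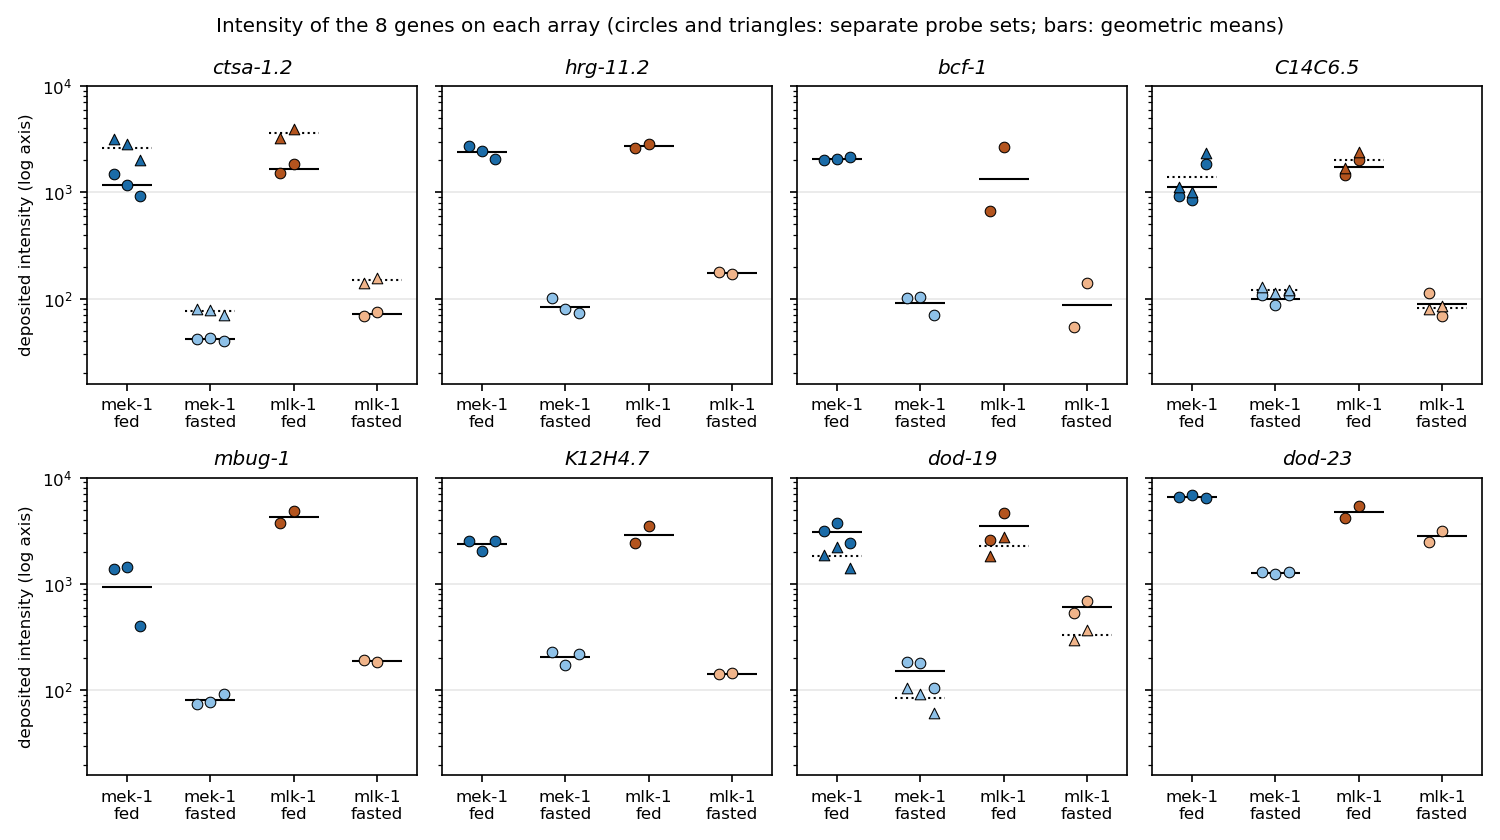
Deposited intensity (log axis) of the 8 genes on each of the 10 arrays, by group, with circles and triangles for separate probe sets of 1 gene and bars for geometric means. Fed and fasted arrays do not overlap in either strain for any of the 11 probe sets, and dod-23 in mlk-1 shows the smallest gap.

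All 11 probe sets had every fasted array below every fed array in both strains, where 4.93% of all probe sets did (8.88% in mek-1 and 16.3% in mlk-1 taken alone). Likewise 11 of 11 were past the adjusted p threshold of 0.05 in the lower direction for the mean of the strains, a call made for 3.80% of all probe sets. The genes were picked on this contrast, so these counts follow from the choice. Ranked by the mean fasting difference over all 22548 probe sets, the better of each gene's probe sets stood at 2 for ctsa-1.2 (-4.65), 6 for hrg-11.2 (-4.22), 9 for bcf-1 (-3.99), 10 for C14C6.5 (-3.86), 11 for mbug-1 (-3.83), 12 for K12H4.7 (-3.81) and 17 for dod-19 (-3.44). Farthest down was dod-23, at rank 182 with -1.55. On this scale the added 16 compresses the differences of dim probe sets toward 0. How far the fasted values lay above background is unknown, since no detection calls were used.

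**Figure D2:**
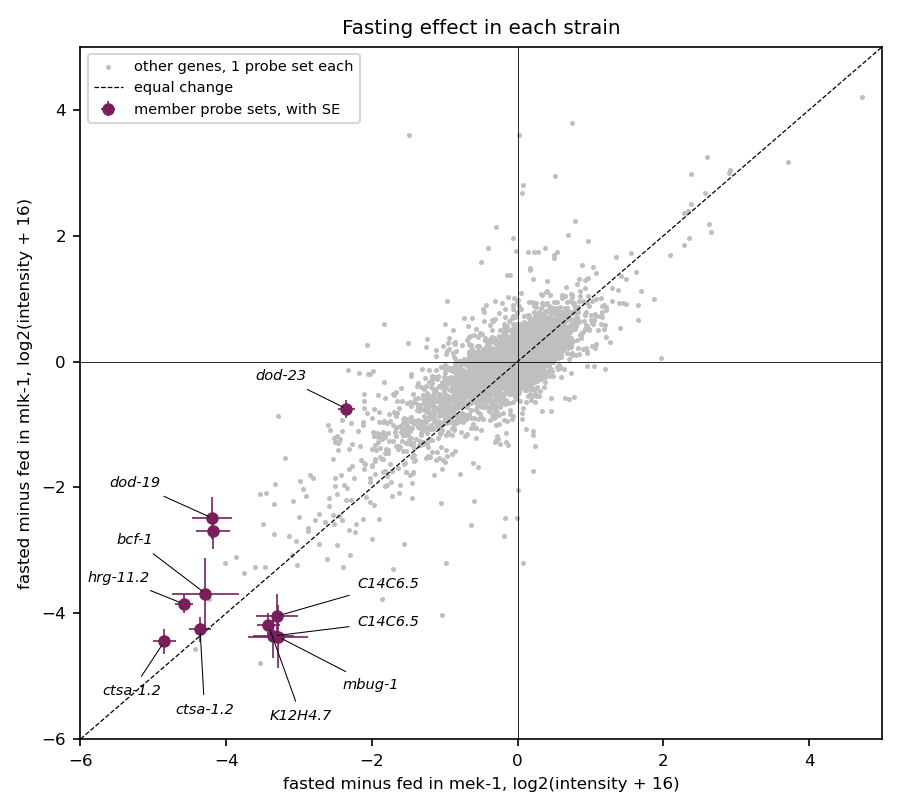
Fasted minus fed difference on the log2(value + 16) scale in mek-1 (horizontal) and in mlk-1 (vertical), with standard errors for the probe sets of the 8 genes, grey points for all other genes and a dashed line where both strains would change equally. The 8 genes lie at the low end in mek-1. Above the dashed line lie ctsa-1.2, hrg-11.2, bcf-1, dod-19 and dod-23, the last 2 farthest from it, and below it C14C6.5, mbug-1 and K12H4.7.

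Whether the fasting difference itself depended on the strain was tested as the mek-1 minus the mlk-1 difference. The genes were chosen for being lower in fasted animals, with earlier results of these data known. A gene could enter through a large difference in a single strain, so the choice may not be independent of this test. For dod-23 the fasted to fed gap was larger in mek-1, -2.35 ± 0.12 against -0.75 ± 0.14, and the difference of -1.60 ± 0.19 (95% interval -2.02 to -1.18) had an adjusted p of 0.0256 in limma. It was the only one of the 11 probe sets past the threshold, against 0.0754% of all probe sets (17) and 0.0621% (14) in this direction. The call was lost in 9 of 21 other fits. These were the fits without any 1 of the mek-1 arrays, without fed array 1 or fasted array 2 of mlk-1, and without both mek-1 arrays numbered 3 (adjusted p = 0.0513 to 0.111 in limma), and the difference lay between -1.78 and -1.41 in all 21.

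Both dod-19 probe sets pointed the same way. Their differences were -1.71 ± 0.43 (interval -2.67 to -0.74) and -1.48 ± 0.37 (-2.32 to -0.65), with adjusted p of 0.621 and 0.615 in limma. With same-numbered arrays paired as blocks, both passed, at 0.0185 and 0.0231. The next in size relative to its error was hrg-11.2 at -0.73 ± 0.20 (-1.17 to -0.29), not past the threshold either way (adjusted p = 0.729 in limma, 0.0876 with the pairing).

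For 3 genes the estimate pointed the other way. K12H4.7 differed by 0.77 ± 0.25 (0.20 to 1.35), mbug-1 by 1.09 ± 0.65 (-0.38 to 2.55) and C14C6.5 by 1.00 ± 0.44 (-0.00350 to 2.01). None was past the threshold, with an adjusted p of 0.99994 in limma for each. For ctsa-1.2 the differences were -0.40 ± 0.25 (-0.97 to 0.17) and -0.10 ± 0.25 (-0.66 to 0.46), and for bcf-1 -0.60 ± 0.72 (-2.23 to 1.04).

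Among fasted animals, 4 of the 11 probe sets, of 3 genes, were lower in mek-1 than in mlk-1, where 1.31% of all probe sets were called lower and 1.46% in either direction. The differences were -1.89 ± 0.30 (adjusted p = 0.0236 in limma) and -1.79 ± 0.26 (0.0167) for dod-19, -1.12 ± 0.13 (0.00720) for dod-23 and -0.92 ± 0.14 (0.0189) for hrg-11.2. In each, every fasted mek-1 array was below both fasted mlk-1 arrays. That order adds little to the call, and its share over all probe sets was not counted. The calls rest on the 2 fasted mlk-1 arrays. Without array 2, the adjusted p in limma was 0.215 and 0.173 for dod-19, 0.0802 for dod-23 and 0.144 for hrg-11.2, and without array 1 it was 0.102 and 0.0865 for dod-19 and 0.134 for hrg-11.2. The first dod-19 probe set and hrg-11.2 also missed the threshold without the fasted mek-1 array numbered 3 (0.0619 and 0.0620), as did dod-19 without number 1 (0.0599) and hrg-11.2 without number 2 (0.0538).

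For ctsa-1.2 the fasted difference was -0.84 ± 0.18 and missed the threshold (adjusted p = 0.0628 in limma), as did mbug-1 at -1.08 ± 0.46 (0.438). In other fits ctsa-1.2 passed in 9 of 22 and mbug-1 in 4 of 22. Without the fed mek-1 array numbered 3 the adjusted p in limma was 0.0112 for ctsa-1.2 and 0.00708 for mbug-1, with the differences themselves the same. K12H4.7, at 0.48 ± 0.18 (0.347), and the C14C6.5 probe sets, at 0.47 and 0.15, had positive differences that were not past it. For bcf-1 the fasted strains differed by 0.02 ± 0.51.

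Among fed animals none of the 11 probe sets was past the threshold in limma, against 0.603% of all. At an unadjusted p under 0.05 there were 4, of ctsa-1.2 (both), mbug-1 and dod-23, against 8.46% of all. The largest difference was that of mbug-1, -2.16 ± 0.46 (interval -3.20 to -1.13), with an adjusted p of 0.104 in limma. Without the fed mek-1 array numbered 3, which had the low mbug-1 value, the difference was smaller, -1.58, and past the threshold (0.00286). The fed value of dod-23 was 0.48 ± 0.13 higher in mek-1 (adjusted p = 0.226 in limma).

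**Figure D3:**
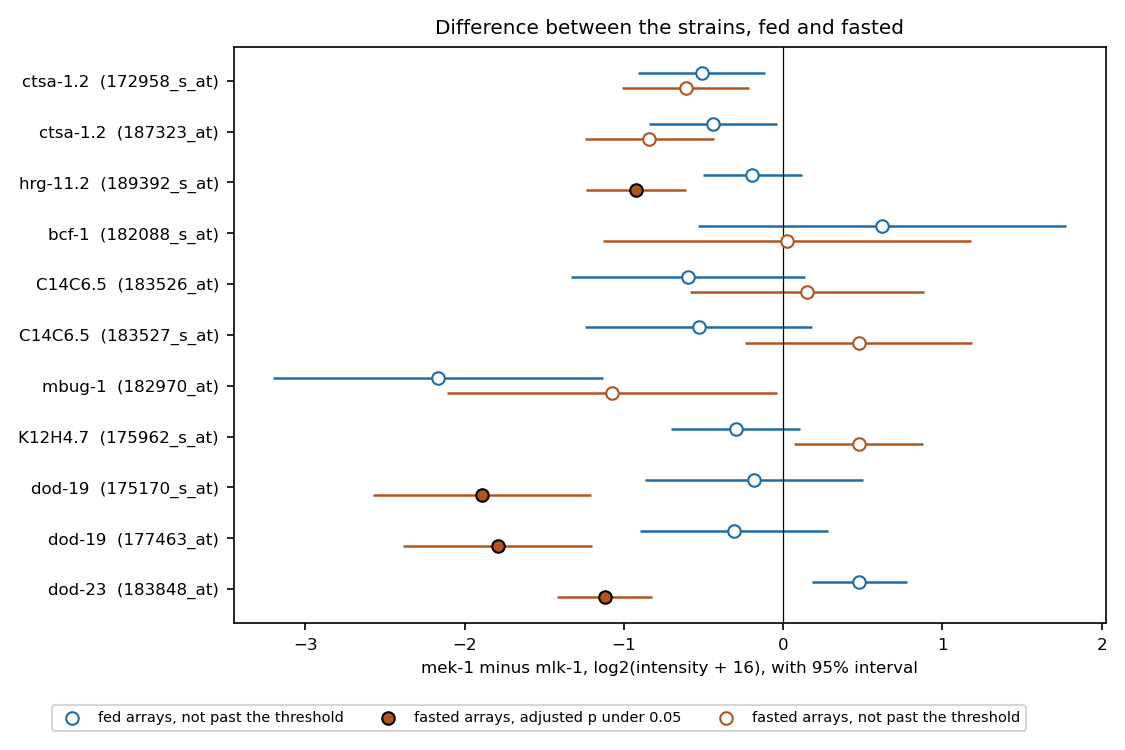
mek-1 minus mlk-1 difference on the log2(value + 16) scale for each of the 11 probe sets in fed (blue) and fasted (orange) animals, with 95% intervals and filled points where the adjusted p is under 0.05. The filled points are those of dod-19, dod-23 and hrg-11.2 in fasted animals, all below 0, and no fed point is filled.

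The genes also varied between arrays of a group. All 8 read lower on the fed mlk-1 array 1 than on array 2, by a mean of 0.31 to either side of their midpoint, and bcf-1 by the most. The share of all probe sets that did so was not counted. On the first principal component of all probe sets, array 1 was at -10.9 and array 2 at -24.1, with fasted arrays at 15.1 to 30.9. Array 1 thus lay nearer to the fasted arrays there too. Over the 10 arrays each gene's profile had a Pearson correlation of 0.906 (mbug-1) to 0.997 (ctsa-1.2) with the mean profile of the other 7. These values describe 10 points that share 1 fed to fasted gap. By the same measure, the 5 genes outside the group most like its mean profile, of 17110, were T21H3.1 (0.992), C27C7.5 (0.992), hrg-11.3 (0.991), eat-2 (0.990) and clec-173 (0.990).

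Genes related to the 8 by name or family were taken from lists, and each was tested for fasting. The lists were chosen with earlier results of these data known, so their counts are a description and no independent test. For the mean of both strains 4.03% of all 17118 genes were called lower and 4.21% higher. The median difference over all genes was 0.04.

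Of the 6 other cathepsin A-like genes, 3 fell and 3 did not pass, with a median of -0.82. Those that fell were ctsa-4.2 (-1.34 ± 0.20, adjusted p = 0.00537 in limma), ctsa-4.1 (-1.28 ± 0.12) and ctsa-2 (-1.15 ± 0.14). The closest in name, ctsa-1.1, was at -0.11 and not past the threshold. With the pairing 4 fell, ctsa-3.1 being added (adjusted p = 0.00274 in limma).

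Of the 9 other S28 peptidase genes, 3 fell and 6 did not pass, with a median of -0.53. These were F56F10.1 (-1.86 ± 0.17), pcp-1 (-1.34 ± 0.13) and C26B9.5 (-1.05 ± 0.10). With the pairing 5 fell and 1 rose. All 6 falls in the peptidase lists were smaller than those of ctsa-1.2 (-4.65) and K12H4.7 (-3.81).

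Of the 11 other heme responsive genes, 3 fell, 1 rose and 7 did not pass, with a median of 0.00. The falls were those of hrg-11.3 (-3.49 ± 0.19, adjusted p = 1.9e-05 in limma), hrg-11.4 (-1.69 ± 0.21) and hrg-7 (-1.08 ± 0.14). The rise was that of hrg-13, 0.35 ± 0.07, which was lost in 5 of 21 other fits, and with the pairing 3 rose. hrg-11.3 read 1956, 1913 and 1934 in fed mek-1 and 178, 115 and 78.8 in fasted mek-1 animals, and 1498 and 2211 against 193 and 200 in mlk-1. Its fed and fasted arrays did not overlap, as for hrg-11.2. The probe sets of hrg-11.2, hrg-11.3 and hrg-11.4 are of the kind that can hybridise to several transcripts (ID ending in _s_at). So are those of bcf-1 and K12H4.7, and those with the higher mean of dod-19 and C14C6.5. For these a share of signal from related genes cannot be told apart, also between hrg-11.2 and hrg-11.3. Without probe sets ending in _s_at or _x_at, 1 of 7 other heme responsive genes fell and 1 rose.

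Of the 7 other dod genes, 3 fell, 1 rose and 3 did not pass, with a median of -0.19. In dod-24 the mean difference was -2.54 ± 0.24 (adjusted p = 0.000387 in limma), from -1.04 in mek-1 and -4.03 in mlk-1. In dod-22 it was -1.25 ± 0.20 (0.00703), from -0.01 and -2.48. The fall of dod-17 (-0.60 ± 0.15, adjusted p = 0.0490 in limma) was lost in 12 of 21 other fits and the rise of dod-18 (0.32 ± 0.06) in 4. Where dod-19 and dod-23 had the larger difference in mek-1, dod-22 and dod-24 had it in mlk-1, but for these the test of the strain difference was not passed (adjusted p = 0.142 and 0.134 in limma).

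None of 12 regulators of gut transcription and immunity passed in limma (2 were higher at an unadjusted p under 0.05), with a median of 0.13. The GATA factor elt-2, which drives intestinal genes, was at -0.17, and hlh-30, a regulator of lysosomal and fasting genes, at 0.68 ± 0.19 (adjusted p = 0.0575 in limma). With the pairing 5 of the 12 rose (hlh-30, nhr-49, tir-1, skn-1 and sek-1).

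The 16 nearest protein-coding neighbours, 1 on each side of each of the 8 genes in the RefSeq assembly WBcel235, were all measured. Of these, 4 fell, none rose (limma, 1 at an unadjusted p under 0.05) and 12 did not pass. Next to hrg-11.2 lies irg-7, an infection response gene, which read 2470, 2045 and 2370 in fed and 399, 225 and 163 in fasted mek-1 animals, and 2456 and 2663 against 390 and 334 in mlk-1. It fell by 2.95 ± 0.20 (adjusted p = 6.8e-05 in limma), with about the same size in mek-1 (-3.14) and mlk-1 (-2.77). Next to dod-19 lies irg-8, which had 409, 876 and 799 fed against 38.2, 40.3 and 49.5 fasted in mek-1, and 236 and 1608 against 87.1 and 197 in mlk-1. It fell by 2.82 ± 0.48 (adjusted p = 0.00922 in limma), and like bcf-1 it was low on the fed mlk-1 array 1. The gene next to bcf-1, gfi-1, was at -0.89 ± 0.44 and not past the threshold (adjusted p = 0.283 in limma, 0.0132 with the pairing). With the pairing nhr-132, next to C14C6.5, rose (adjusted p = 0.0262 in limma).

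**Figure D4:**
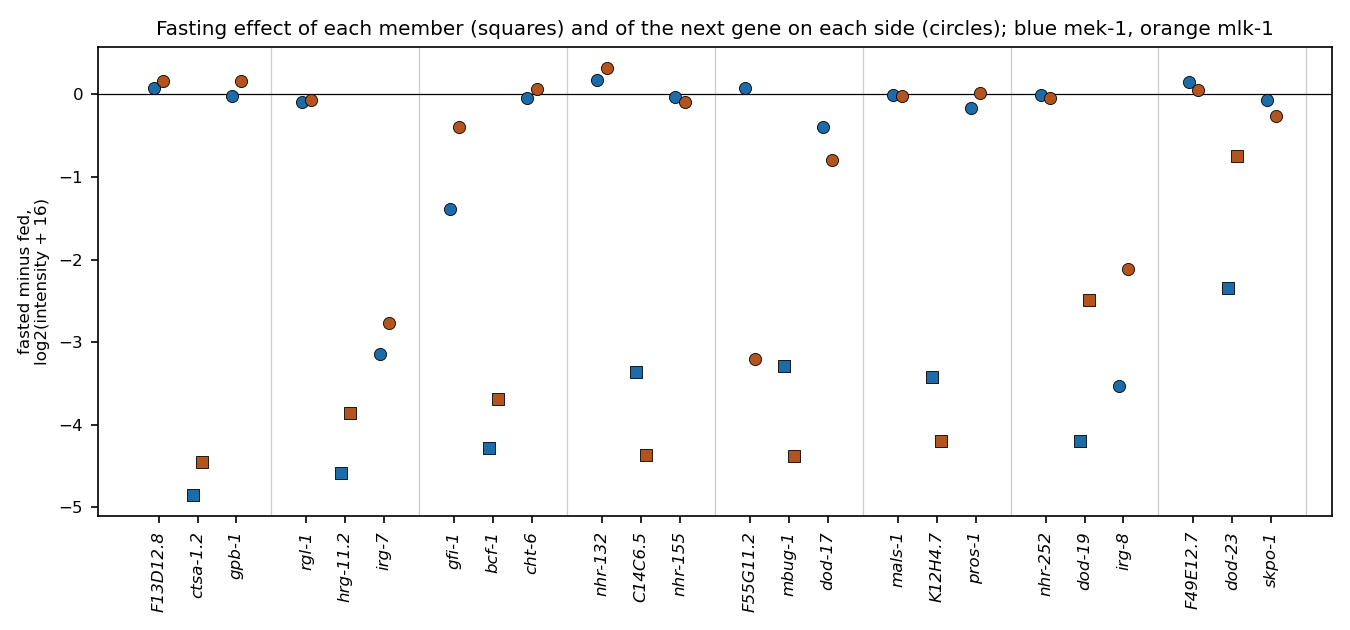
Fasted minus fed difference on the log2(value + 16) scale for each of the 8 genes (squares) and the next gene on each side (circles), in mek-1 (blue) and mlk-1 (orange). irg-7 and irg-8 lie low in both strains, F55G11.2 at -3.20 in mlk-1 and 0.07 in mek-1, and most other neighbours lie near 0.

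On the sides of mbug-1 lie F55G11.2 and dod-17, which also encode CUB-like proteins. F55G11.2 read 31.6, 28.1 and 50.8 fed and 42.2, 31.4 and 43.2 fasted in mek-1, against 290 and 695 fed and 32.6 and 37.0 fasted in mlk-1. Only the fed mlk-1 arrays stood out, and the low mek-1 values left little room for a fall. Its mean difference was -1.56 ± 0.22 (adjusted p = 0.00395 in limma), from 0.07 in mek-1 and -3.20 in mlk-1. The difference between the strains, 3.27 ± 0.45, had an adjusted p of 0.0586 in limma and 0.0144 with the pairing. In fed animals it was lower in mek-1, at -3.17 (0.00294), a call lost in 1 of 22 other fits.

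For dod-24 the fed mlk-1 arrays were highest too. It read 119.4, 177 and 67.2 fed and 39.5, 40.6 and 63.1 fasted in mek-1, against 2460 and 3976 fed and 173 and 180 fasted in mlk-1. Within mek-1 its fed arrays also lay above its fasted arrays, at -1.04. Fed animals of the strains differed by -4.60 in dod-24 (adjusted p = 0.000657 in limma) and by -2.86 in dod-22 (0.00279). On the mek-1 arrays dod-22 read at most 20.7, near the lowest value of the table, so its level there has only a bound. For mbug-1 the fasting difference was -3.29 ± 0.41 in mek-1 and -4.37 ± 0.50 in mlk-1.

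**Figure D5:**
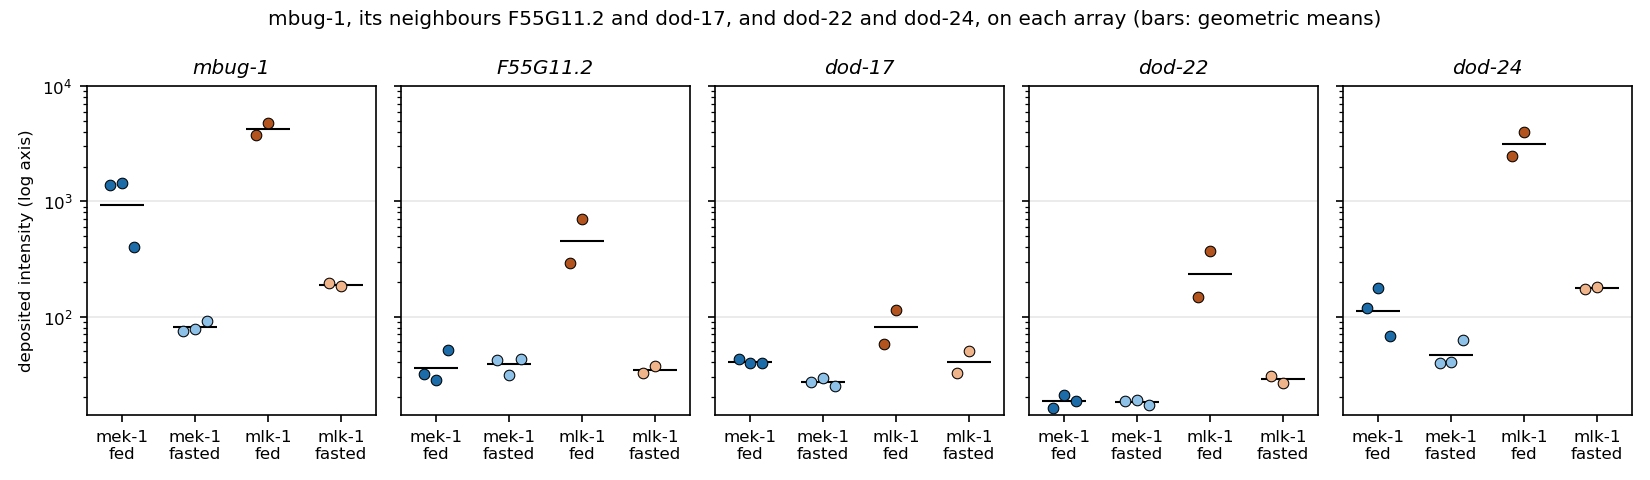
Deposited intensity (log axis) of mbug-1 and the CUB-like genes F55G11.2, dod-17, dod-22 and dod-24 on each of the 10 arrays, by group. The fed mlk-1 arrays are highest for each gene, and for mbug-1 the mek-1 fed arrays (403 to 1440) also lie far above the mek-1 fasted arrays (74.3 to 92.3).

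The labels name no tissue, and arrays of whole animals do not show where a gene was transcribed, so the label of gut genes was set beside markers. Markers show how known genes of a tissue changed and not where the members are expressed, so the label itself was not tested. Of 20 intestine markers 9 fell, none rose (limma, and none at an unadjusted p under 0.05) and 11 did not pass, with a median of -0.44. The largest falls were those of asp-1, an aspartyl protease (-1.92 ± 0.21), vha-6, an apical proton pump subunit (-1.23 ± 0.11), act-5, the actin of the microvilli (-1.23 ± 0.22, -2.32 in mek-1 and -0.13 in mlk-1), and pgp-1 (-1.21). Summed over the 20 markers, intensity was 18118 to 23592 in fed and 8826 to 11341 in fasted mek-1 animals, and 22139 to 26074 against 11703 to 11938 in mlk-1. The sum follows the brightest markers and is not a measure of intestinal RNA as a whole. In mek-1, asp-1 read 6209 to 7489 fed and 1305 to 3211 fasted, and cpr-6 read 3500 to 6202 and 1566 to 2032. The marker erm-1 read 1147 to 1513 fed and 1116 to 1422 fasted in mek-1. The lowest single value of the 20 markers was 43.1, and without detection calls it is unknown how far this lay above background. Fewer cells of a type and less RNA per cell cannot be told apart in such samples, and the part of these shifts in the members' values was not tested.

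In markers of other tissues, 4 of 8 of body wall muscle fell (median -0.70). That count was 6 with the pairing, 1 without mek-1 fed array 1, mek-1 fasted array 1 or 2 or mlk-1 fed array 1, and 0 without mlk-1 fed array 2 or either mlk-1 fasted array. Of the 7 epidermis markers 1 fell (dpy-7, median -0.96), with 4 under the pairing, 3 without mek-1 fasted array 3 and 0 without mek-1 fasted array 1, mlk-1 fed array 2 or either mlk-1 fasted array. The intestine count ran from 7 to 10 without single arrays and was 12 with the pairing. None of the 6 pharynx, 8 germline and 2 coelomocyte markers passed in limma, where 1 pharynx and 1 coelomocyte marker were lower and 1 germline marker higher at an unadjusted p under 0.05. With the pairing myo-5 of the pharynx fell (0.0210) and gld-1 of the germline rose (0.0316). Of 8 neuronal markers 1 rose, snb-1 (0.31, adjusted p = 0.0314 in limma), a call lost in 11 of 21 other fits. Summed over the muscle markers, intensity was 5544 to 12582 in fed and 2789 to 4559 in fasted mek-1 animals, and 4493 to 4850 against 3276 to 3795 in mlk-1. The epidermis sums were 4766 to 6380 fed and 2885 to 2978 fasted in mlk-1, and overlapped in mek-1. The neuron sums in mlk-1 went the other way, 3259 to 3546 fed and 4250 to 4288 fasted. The germline sums overlapped between fed (15889 to 21164) and fasted (17179 to 22801) mek-1 arrays. Without both mek-1 arrays numbered 3, a choice made after seeing the data, 11 intestine, 6 muscle and 4 epidermis markers fell, 4 neighbours, 4 cathepsin A-like, 4 S28 and 2 dod genes.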

How the data were processed

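The authors deposited 1 table of linear intensity values, 1 per probe set and array, with a lowest value of 16.0. RNA was extracted with Trizol, per the labels' protocols. Their summary and normalization are not given in the sources used here. Of 22625 probe sets, 77 controls were left out. Of the rest, 20766 pair with 1 symbol, 887 with several and 895 with none. Per gene, the probe set with the highest mean was used for lists.

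Values were taken as log2(value + 16) and limma 3.58.1 under R 4.3.3 (lmFit, then eBayes) was run on the 10 arrays with 1 mean per group, leaving 6 residual degrees of freedom beside 2.90 prior ones. Tests were two-sided, with Benjamini-Hochberg adjustment over all 22548 probe sets, also for genes on lists, and a threshold of 0.05. Errors are standard errors of the fit. The fit was run on simulated data with known changes and noise independent between arrays. That checked the estimates of the code and not the calls made here. Plots used matplotlib 3.10.9 (Python 3.11.15).

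Percentages of the fed level are ratios of geometric means of the deposited values. The genes and lists were chosen with earlier results of these data known. Named were all members, up to 4 genes per list and direction past the threshold with the largest effect, both neighbours, and the 5 genes most alike in profile. Other genes of a list or marker set are named with their values as examples chosen after those were seen.

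The labels give numbers but do not state a pairing. Same-numbered fed and fasted arrays deviated together, with correlations of 0.440, 0.675 and 0.573 in mek-1 and 0.352 in mlk-1. Arrays of unlike number in mek-1 were at -0.0226 to -0.554, in part because deviations from a group mean oppose each other. With 2 arrays a group the mlk-1 value could only be 0.352 or -0.352. The numbers were taken to pair the arrays, and a fit with pairs as a block was run beside the main one. The block was fixed for fasting contrasts and random for contrasts between strains. As the pairing was read from these same values, the paired p-values hold only if it is right. The labels do not name separate cultures, so p-values measure only the spread between these samples. The number of arrays limits the precision. In all, 22 alternatives were run.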

Additional observations from a re-analysis of the deposited data

Results flagged for a closer look

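The fasting difference of dod-23 differed between the strains by the test of the difference itself. It was -1.60 ± 0.19 on the log2(value + 16) scale (mek-1 minus mlk-1, adjusted p = 0.0256 in limma, 0.00238 with same-numbered arrays paired). The range of the adjusted p over the other fits was 0.00238 to 0.111. Groups of 3 and 2 arrays were too small for a test of single outlying arrays.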

How the results depend on the processing

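Leaving out probe sets ending in _s_at or _x_at leaves fewer to test, so the counts of that fit are not out of the same total. Over all probe sets, 1781 were called for fasting. There were 3025 with array weights, 1131 without probe sets ending in _s_at or _x_at, 4502 with the replicate block and 732 to 1988 without single arrays. For the strain difference of the fasting effect 17 were called, 844 at an unadjusted p under 0.05. There were 11 without _s_at and _x_at probe sets, 50 with the block, 10 without both mek-1 arrays numbered 3 and 6 to 30 without single arrays. For fed strains the 136 became 13 with the compared groups alone and 55 to 134 without single arrays, and for fasted strains the 330 became 979 with array weights and 37 to 457 without single arrays.

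Of the 11 probe sets of the 8 genes, the 1 call in the strain difference of fasting became 3 with the block, 0 without both mek-1 arrays numbered 3 and 0 to 1 without single arrays. The 0 calls in fed strains became 1 with array weights, 1 without both mek-1 arrays numbered 3 and 0 to 1 without single arrays. The 4 calls in fasted strains became 7 with array weights, 7 with the compared groups alone and 0 to 6 without single arrays. The pairing changed no call of the 11 in fed or fasted strains.

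Directions turned for these differences, none of them past the threshold in the fit reported. In the strain difference of fasting, the ctsa-1.2 probe set with the lower mean went from -0.10 to 0.13 with a constant of 64 and ran from -0.27 to 0.070 without single arrays, and bcf-1 ran from -1.58 to 0.39. In fed strains bcf-1 ran from -0.36 to 1.61 and the dod-19 probe set with the higher mean from -0.60 to 0.24. In fasted strains bcf-1 ran from -0.55 to 0.59, and was -0.0055 with a constant of 64, and the C14C6.5 probe set with the lower mean ran from -0.16 to 0.46. The cause was not tested. The planned searches for promoter motifs and related proteins were not run, because no sequence tables were used here. With 2 mlk-1 arrays a group, leaving out 1 gives the lone array the spread of the other groups.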

Other observations

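Among fasted animals, 4 of the 20 intestine markers were lower in mek-1 than in mlk-1, against 1.31% of all probe sets: act-5, the actin of the microvilli (adjusted p = 0.0422 in limma), and the intestinal intermediate filament genes ifb-2 (0.0489), ifc-2 (0.0347) and ifd-2 (0.0258). Fed strains did not differ past the threshold in any of the 20. Without the fasted mlk-1 array 2 the adjusted p rose to 0.319 for act-5, 0.370 for ifb-2 and 0.258 for ifc-2, and without array 1 to 0.186 for ifd-2. The strain difference of the fasting effect was past the threshold for none of these in limma, and with the pairing for ifb-2 (0.00728), ifc-2 (0.0275) and ifd-2 (0.0185).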
